A study of Mus musculus with 27 samples.

Results

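This account describes the step from 30 to 60 min of eating in the livers of refed mice. It sets the 3 libraries of livers refed for 60 min against the 3 libraries of livers refed for 30 min, 6 of the 27 libraries of the series. The groups were taken from the library titles, which give the treatment and the time, and no measured value was used to choose them. All mice of the series were labelled WT (wild type) and of the strain C57/BLN6, and all had been fasted for 16 h. Only the refed groups then had food to eat. The labels name no transgene and give no age or sex. Another 4 groups enter as context, each of 3 libraries: livers of mice given caged food for 60 min, livers of mice given caged food for 30 min, and 2 later refed groups, at 120 and 240 min. Caged food is food enclosed in the cage of the mouse, which the mouse can sense and not eat. Livers of mice that stayed fasted, also 3 libraries, are the starting point of the time series. Below, R60-1 to R60-3 are replicates 1 to 3 of refed 60 min, and R30-1 to R30-3 those of refed 30 min. The labels do not say whether the libraries of a group came from separate animals, so the p-values measure the spread between these libraries.

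Eating after a fast brings glucose, amino acids and insulin to the liver through the portal vein. Insulin signalling through AKT keeps the transcription factor FOXO1 out of the nucleus, and genes of glucose production that need FOXO1 are then transcribed less. Amino acids and insulin also activate mTORC1, which drives the making of ribosomes and proteins. A first wave of immediate early genes, whose transcripts are short-lived, commonly precedes such changes, and its members fall again once the signal has passed.

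The values are read counts per gene that the authors had scaled to a common level per library and rounded to whole numbers, called values below. The 6 libraries summed to 42.6 to 45.2 M of these units. From the spacing of the low values, 1 read was worth 0.832 to 1.15 units and the estimated depth behind them was 37.8 to 51.2 M reads per library. Hepatocyte markers such as albumin made up 11.5% to 12.8% of the total in each of the 6 libraries, and none of the 80 tested marker genes of hepatocytes or of 9 other cell types was called between 60 and 30 min. By the log2 fold change of 60 over 30 min, 10 of 11 Kupffer cell markers lay below 0 and 1 above (median -0.28). Of 13 leukocyte markers, 11 lay below 0 and 2 above (median -0.28). The 6 tested cholangiocyte markers all lay above 0 (median 0.11), and the 10 hepatocyte markers 5 on each side. The summed value of 12 markers of pancreatic acinar cells was 332, 466 and 321 in the refed 60 min livers, against 6570 in R30-1, 358 in R30-2 and 385 in R30-3. Of the 10 acinar markers tested, 6 (Cela3b, Prss2, Cpa1, Cpb1, Pnlip and Clps) were at 0 in R30-2 and R30-3. The 6 hemoglobin and other erythroid markers summed to 6429, 7631 and 6988 in refed 60 min livers, against 10853, 9115 and 8412 in refed 30 min livers, and these sums do not overlap. Whether blood or pancreas RNA, or a shift in cell types, had a part in the results below was not tested. On the second principal component of all libraries, 1 library of caged food 60 min (-35.9) and 1 of caged food 30 min (-35.7) stood apart. R30-1 and R30-2 lay at -22.6 and -20.1, and the other 8 libraries of these 4 groups between -6.40 and 18.5. Of the libraries of 240 min, refed replicate 3 and caged food replicate 1 carry a treatment label that names the other treatment than their title. They were grouped by title, and neither is in the 2 groups of the step. Both enter the fit of all 27 libraries that gives the standard errors of the step. Without these 2 libraries, 798 of the 929 calls of the step reported below were kept. Results at 240 min are given with and without them. Where leaving out 1 library ended the call of a named gene, the adjusted p without that library stands in parentheses after the gene. In bulk tissue, fewer cells of a type and less RNA per cell cannot be told apart.

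Between 30 and 60 min of eating, 929 of 15932 genes tested changed (5.83%), 539 higher (3.38%) and 390 lower (2.45%) at 60 min. Here and below, a gene is called when its adjusted p from limma is under 0.05, fold changes are log2 of the value plus 1 with the standard error, 60 min over 30 min, and 3 libraries stand in each group. The median log2 fold change was 0.44 among the risers and -0.66 among the fallers, beside -0.0070 over all genes tested. A change of 2-fold or more was seen in 31 risers and in 117 fallers. In 529 of the risers and 384 of the fallers, the 3 libraries of one time lay beyond all 3 of the other. Among all genes tested, 11.7% lay wholly higher and 10.6% wholly lower in this sense. Most of the called genes code for protein, 93.5% of the risers and 91.8% of the fallers, beside 87.2% of all genes tested. The called genes also had higher values. The median of the mean value in refed 30 min livers was 821 for risers and 814 for fallers, beside 423 for all genes tested. The part of this in the shares called was not tested. The median gene length was 24.5 kb for risers and 22.4 kb for fallers, beside 20.5 kb for all genes tested. The count leans on single libraries of refed 30 min: without R30-1, 204 genes were higher and 172 lower, and without R30-3, 300 were higher and 238 lower. Without R60-1, 344 genes were higher. A fit of only these 6 libraries called 145 higher and 181 lower, so the higher share was 44.5%, beside 58.0% in the fit of all 27 libraries.

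**Figure D1:**
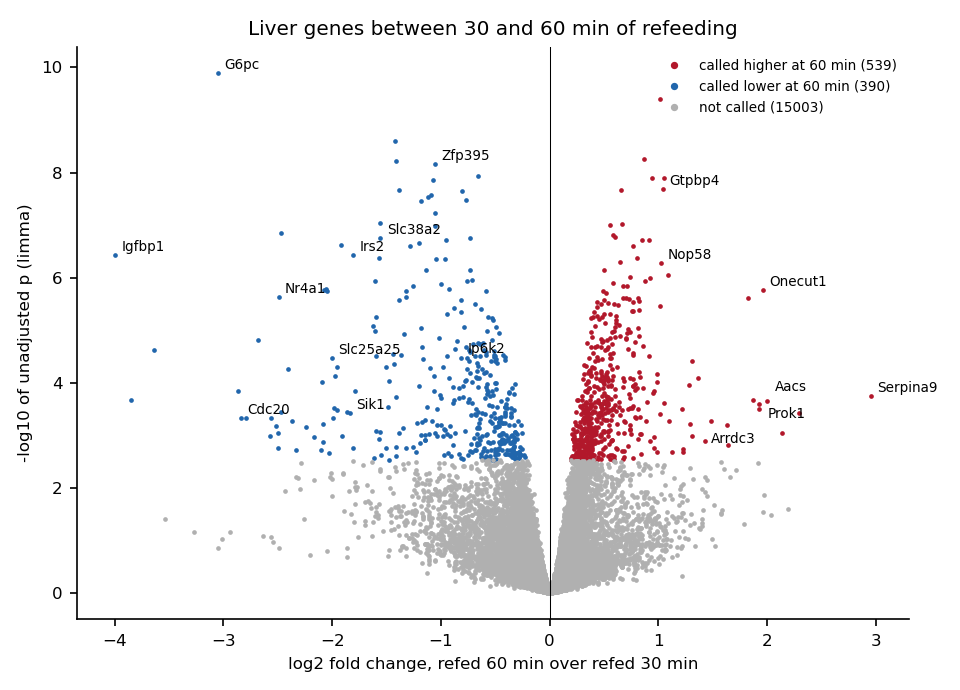
Each point is 1 of 15932 genes; the horizontal axis gives the log2 fold change of refed 60 min over refed 30 min livers (3 libraries each) and the vertical axis -log10 of the unadjusted limma p. Red points are the 539 genes called higher, blue points the 390 called lower, and the point farthest from 0, Igfbp1, lies on the lower side.

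Among genes of glucose production and of FOXO1, every call was a fall. Of 28 tested members, 9 were called lower and 0 higher at 60 min, where 2.45% of all genes tested were called lower, and the median of the list was -0.31. The members of this list and of those below were chosen with earlier results of these data known. The shares called in the lists may therefore be set in part by that choice. Igfbp1 (ENSMUSG00000020429, chr11:7197782-7202546), a secreted binding protein of insulin-like growth factors and a classic insulin-repressed gene, had the largest fall of the named genes. Its values were 831, 190 and 147 in refed 60 min livers, against 5304, 2768 and 6505 in refed 30 min livers. All 3 libraries of 60 min lay below all 3 of 30 min, by a log2 fold change of -4.0 ± 0.57, adjusted p = 0.000162. R60-1 stood above the other two libraries of 60 min. G6pc (ENSMUSG00000078650, chr11:101367561-101377903), the catalytic subunit of glucose-6-phosphatase, which releases glucose from the hepatocyte, had values of 3436, 2005 and 1700 in refed 60 min livers, against 17431, 15185 and 25254 in refed 30 min livers. The highest 60 min library lay far below the lowest 30 min library, and the change of -3.05 ± 0.28, adjusted p = 2.04e-06 had the lowest p of any gene tested. The fasted livers held 14419, 22279 and 17062, a range that overlaps that of the 30 min livers.

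Pck1, which encodes phosphoenolpyruvate carboxykinase, is among the most abundant messages of the fasted liver. Its values were 95482, 117619 and 129753 in refed 60 min livers, against 305565, 289945 and 282356 in refed 30 min livers, a log2 fold change of -1.37 ± 0.26, adjusted p = 0.00269. The step of Pck1 was smaller than that of G6pc, and its values went on to 42331, 26914 and 23431 at 120 min. Irs2 (ENSMUSG00000038894, chr8:10984681-11008458), the insulin receptor substrate that FOXO1 induces in fasting, had values of 304, 259 and 168 in refed 60 min livers, against 958, 664 and 900 in refed 30 min livers (-1.81 ± 0.26, adjusted p = 0.000162). Ccng2, a cyclin G gene that FOXO factors activate, had 284, 317 and 299 in refed 60 min livers, against 617, 622 and 687 in refed 30 min livers (-1.09 ± 0.13, adjusted p = 2.83e-05). The libraries of each time agree closely for Ccng2 and do not overlap. Ppargc1a, the coactivator PGC-1 alpha, was not called: its values were 1806, 1086 and 1157 in refed 60 min livers, against 1436, 1723 and 1318 in refed 30 min livers, a difference of -0.17 ± 0.22, adjusted p = 0.757. The calls of these 5 fallers were kept with each library of the step left out. Against fasted livers, 12 members of the list were lower at 60 min, where 3.75% of all genes were, and 0 at 30 min by limma, where 0.326% were and 1812 of all genes had an unadjusted p under 0.05. Those comparisons share libraries with the step.

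The promoters of the called members were searched for short motifs, because these genes moved together. Promoter windows of 250 bases before to 50 bases after the start site came from RefSeq (GRCm38.p6) and were matched by symbol for 11172 of the 15923 tested symbols. The core of the insulin response element, TGTTTTG on either strand, was present in 4 of 8 called members with a window (Igfbp1, G6pc, Irs2 and Ccng2), in 5 of the 22 tested members with a window and in 4.41% of all matched windows. The canonical forkhead motif TGTTTAC, which shares its first 5 letters with it, was present in 0 of the 8 and in 2.58% of all. The cAMP response element TGACGTCA was also present in 0 of the 8 and in 3.11% of all. Such a match is a description of the letters, not of a bound site. The 200 bases before the start sites of the 2 largest fallers follow, G6pc from chr11:101367516-101367715 and Igfbp1 from chr11:7197587-7197786 (GRCm38.p6, both plus strand). Start sites are those of RefSeq, while the gene spans given above are those of GENCODE and begin elsewhere. Capitals mark the core, which begins at -174 in G6pc and, in its reverse orientation, at -108 in Igfbp1.
G6pc: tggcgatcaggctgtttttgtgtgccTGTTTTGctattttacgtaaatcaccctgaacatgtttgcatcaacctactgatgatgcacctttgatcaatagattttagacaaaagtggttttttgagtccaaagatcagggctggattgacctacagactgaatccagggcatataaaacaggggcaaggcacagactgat
Igfbp1: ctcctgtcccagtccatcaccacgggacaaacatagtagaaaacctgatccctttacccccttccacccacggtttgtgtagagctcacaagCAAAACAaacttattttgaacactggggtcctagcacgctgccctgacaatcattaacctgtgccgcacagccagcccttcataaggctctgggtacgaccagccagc

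Many genes of ribosome assembly rose, by modest amounts. Of 45 tested ribosome biogenesis factors, 26 were called higher and 0 lower, where 3.38% of all genes tested were called higher. 44 of the 45 lay above 0, and the median was 0.41 beside -0.0070 over all genes. The highest rise in the list was 1.03. Gtpbp4 (ENSMUSG00000021149, chr13:8966331-8996083), a nucleolar GTPase of large-subunit assembly that the list does not hold, was among the largest rises. It had values of 3040, 3183 and 3389 in refed 60 min livers, against 1459, 1728 and 1497 in refed 30 min livers (1.04 ± 0.12, adjusted p = 2.56e-05). Its libraries at 60 min lay wholly above those at 30 min. Nop58, a core protein of box C/D snoRNPs that guide methylation of ribosomal RNA, had 2380, 1674 and 1825 in refed 60 min livers, against 867, 1122 and 880 in refed 30 min livers (1.03 ± 0.15, adjusted p = 0.000193). Its highest library at 60 min was R60-1. Nip7, a large-subunit assembly factor, had 833, 749 and 804 in refed 60 min livers, against 466, 496 and 443 in refed 30 min livers (0.76 ± 0.11, adjusted p = 0.000116). Gar1, a core protein of the box H/ACA snoRNPs that guide pseudouridylation, had 453, 307 and 345 in refed 60 min livers, against 200, 206 and 187 in refed 30 min livers (0.88 ± 0.13, adjusted p = 0.00035). Wdr75, a part of the small-subunit processome, had 1147, 921 and 927 in refed 60 min livers, against 574, 652 and 675 in refed 30 min livers (0.65 ± 0.09, adjusted p = 0.00019). The list kept 17 to 27 called members with each library left out, lowest without R30-1, and 13 in the fit of only these 6 libraries. None of the 32 tested cytosolic ribosomal protein genes was called by limma, and their median was -0.025. Of the 37 tested ribosome biogenesis genes with a promoter window, 18.9% held the E-box CACGTG, beside 9.68% of all. It was also held by 27.3% of the tested genes of glucose production and FOXO1 and by 23.3% of the tested immediate early genes with a window.

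Enzymes of polyamine synthesis gave 2 calls. Of 11 tested polyamine genes, 2 were called higher and 0 lower, beside 3.38% of all genes called higher. They were Odc1, ornithine decarboxylase, with 1953, 1714 and 1618 in refed 60 min livers, against 1282, 1172 and 1172 in refed 30 min livers (0.54 ± 0.12, adjusted p = 0.00931), and Srm, spermidine synthase, with 1646, 1308 and 1213 in refed 60 min livers, against 1046, 1011 and 803 in refed 30 min livers (0.54 ± 0.13, adjusted p = 0.013). Both genes have 60 min libraries wholly above the 30 min libraries. Single libraries ended the calls of Odc1 (0.0554 without R60-1) and Srm (0.0957 without R30-3, 0.0906 without R60-1).

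Part of the cytosolic heat shock genes rose. Of 27 tested, 10 were called higher and 0 lower, where 3.38% of all genes were called higher, 26 lay above 0, and the median was 0.32. The list also holds Hspd1 and Hspe1, which encode mitochondrial and not cytosolic chaperonins, and neither was called. Hspa4l, an HSP110-type nucleotide exchange factor, had 1169, 1119 and 1321 in refed 60 min livers, against 702, 734 and 675 in refed 30 min livers (0.77 ± 0.16, adjusted p = 0.00523). Bag3, a cochaperone of HSP70, had 3412, 3258 and 3973 in refed 60 min livers, against 1942, 2530 and 2195 in refed 30 min livers (0.68 ± 0.15, adjusted p = 0.00645). Against fasted livers, with 1321, 1206 and 1133, each 30 min library already lay above each fasted one. Chordc1, a cochaperone of HSP90, had 1601, 1870 and 2703 in refed 60 min livers, against 1166, 1415 and 1067 in refed 30 min livers (0.73 ± 0.16, adjusted p = 0.00811). Stip1, which links HSP70 to HSP90, had 4002, 4125 and 4444 in refed 60 min livers, against 3023, 3271 and 2734 in refed 30 min livers (0.48 ± 0.11, adjusted p = 0.0108). Hspa1b, an inducible HSP70 gene with a near-identical copy in Hspa1a, so that its reads may be split, was not called: its values were 844, 742 and 1333 in refed 60 min livers, against 594, 696 and 379 in refed 30 min livers, a difference of 0.80 ± 0.41, adjusted p = 0.299. The count rests on few libraries: it was 3 without R30-1, 2 without R30-3 and 5 without R60-3, and 5 in the fit of only these 6 libraries. Against fasted livers, 23 of the list were higher at 60 min, where 7.26% of all genes were, and 8 at 30 min, where 1.31% were, in comparisons that share libraries with the step. Leaving out 1 library ended the calls of Bag3 (0.0582 without R30-1), Chordc1 (0.0524 without R30-3, 0.0619 without R60-3) and Stip1 (0.0679 without R30-3).

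The heat shock element searched, GAANNTTC on either strand (its own reverse complement), was present in 11 of 22 tested members with a window and in 4 of the 9 called ones, Fkbp4 among them, beside 5.76% of all windows. It is shown for Fkbp4, the gene of an HSP90-binding immunophilin, where it begins at -151 (chr6:128438657-128438856, GRCm38.p6, minus strand, the 200 bases before the start site in the direction of transcription). Capitals mark the match. Its log2 fold change was 0.49, and its call ended without single libraries, Fkbp4 (0.0976 without R30-1, 0.0584 without R30-3, 0.0524 without R60-2).
Fkbp4: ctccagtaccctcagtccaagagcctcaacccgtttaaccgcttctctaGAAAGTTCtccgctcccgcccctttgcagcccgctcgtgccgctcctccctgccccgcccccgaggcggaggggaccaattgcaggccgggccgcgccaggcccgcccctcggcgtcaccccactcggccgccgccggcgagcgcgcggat

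**Figure D2:**
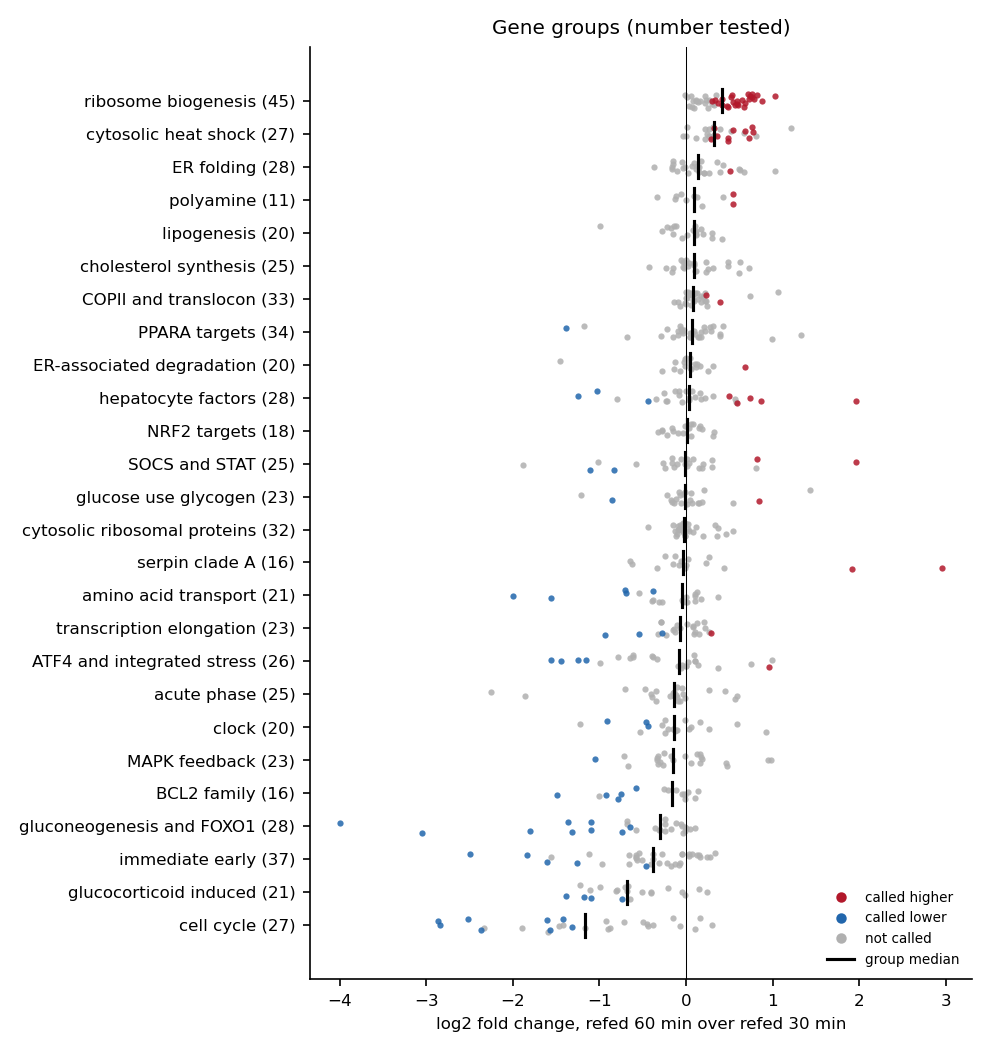
Each point is 1 tested gene of the group named at the left (number tested in parentheses), placed by its log2 fold change of refed 60 min over refed 30 min livers; red points are called higher, blue points called lower, grey points not called, and the black bar is the group median. Ribosome biogenesis (median 0.41, 26 called higher) and cytosolic heat shock (0.32, 10 called higher) stand at the top, and cell cycle (-1.16, 8 called lower) and glucocorticoid-induced genes (-0.68, 4 called lower) at the bottom.

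The largest rises lay outside these lists. Serpina9 (ENSMUSG00000058260, chr12:103994743-104013755), a clade A serpin, had values of 110, 215 and 161 in refed 60 min livers, against 25, 31 and 9 in refed 30 min livers. It was listed at 3, 1 and 0 in the fasted livers, so its libraries were ordered by time without overlap, and its step was 2.96 ± 0.66, adjusted p = 0.00857. Serpina4-ps1, annotated as a serpin pseudogene, had 3974, 10511 and 8170 in refed 60 min livers, against 2215, 1992 and 1419 in refed 30 min livers (1.92 ± 0.44, adjusted p = 0.0107). The clade A serpins are a family of close copies, so reads of these genes may be shared. The other 14 of 16 tested clade A serpins were not called, and the list's median was -0.034. Onecut1 (ENSMUSG00000043013, chr9:74861921-74891781), the hepatocyte transcription factor HNF6, had 3657, 4278 and 3370 in refed 60 min livers, against 814, 1640 and 668 in refed 30 min livers (1.96 ± 0.31, adjusted p = 0.000435). All 3 libraries of 60 min held more than double the highest 30 min library. Prok1 (ENSMUSG00000070368, chr3:107232797-107239707), the secreted peptide prokineticin 1, had 235, 212 and 158 in refed 60 min livers, against 125, 57 and 19 in refed 30 min livers (1.92 ± 0.46, adjusted p = 0.0122). Its 30 min libraries spread widely, from 19 to 125. Aacs, acetoacetyl-CoA synthetase, which feeds ketone bodies into lipid synthesis, had 438, 1486 and 2238 in refed 60 min livers, against 266, 320 and 267 in refed 30 min livers (2.0 ± 0.46, adjusted p = 0.00987). Here R60-1 was the 60 min library closest to the 30 min livers. Nrep, a gene known from regenerating neurons, had 1363, 3104 and 3669 in refed 60 min livers, against 707, 634 and 291 in refed 30 min livers (2.30 ± 0.55, adjusted p = 0.0134), likewise with R60-1 lowest of the 60 min libraries. Without 1 library the calls ended for Serpina9 (0.0632 without R30-3), Serpina4-ps1 (0.0578 without R30-3, 0.0578 without R60-2), Prok1 (0.0988 without R30-3, 0.0514 without R60-1), Aacs (0.0716 without R60-3) and Nrep (0.0872 without R30-3, 0.0512 without R60-2, 0.0663 without R60-3).

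Further large rises covered several functions. Arrdc3, an arrestin-domain protein, had 24253, 22675 and 25104 in refed 60 min livers, against 7204, 6638 and 9660 in refed 30 min livers (1.63 ± 0.41, adjusted p = 0.0188). Ikzf4, an Ikaros-family zinc finger factor, had 260, 305 and 236 in refed 60 min livers, against 112, 125 and 86 in refed 30 min livers (1.31 ± 0.26, adjusted p = 0.00303). Both sets of libraries lie well apart for Ikzf4. Slc10a2, a sodium-dependent bile acid transporter, had 184, 288 and 449 in refed 60 min livers, against 113, 165 and 86 in refed 30 min livers (1.29 ± 0.32, adjusted p = 0.0184), and Gbp11, a guanylate-binding protein, had 131, 251 and 351 in refed 60 min livers, against 128, 96 and 72 in refed 30 min livers (1.23 ± 0.35, adjusted p = 0.0379). For Gbp11 the lowest 60 min library exceeded the highest 30 min library by 3 units only. E2f8, an atypical E2F repressor, had 573, 559 and 646 in refed 60 min livers, against 299, 283 and 248 in refed 30 min livers (1.10 ± 0.27, adjusted p = 0.017). Tuft1, the gene of tuftelin, had 526, 656 and 534 in refed 60 min livers, against 296, 285 and 226 in refed 30 min livers (1.09 ± 0.16, adjusted p = 0.000299). B4galt1, a galactosyltransferase of the Golgi, had 3807, 4795 and 5041 in refed 60 min livers, against 2070, 2526 and 1975 in refed 30 min livers (1.05 ± 0.12, adjusted p = 2.19e-05). Tuft1 and B4galt1 kept their calls with each library left out. Sensitive to 1 library were the calls of Arrdc3 (0.0819 without R30-1, 0.0619 without R30-2, 0.0547 without R60-1, 0.0564 without R60-3), Slc10a2 (0.0774 without R30-1, 0.107 without R30-3, 0.116 without R60-3), Gbp11 (0.0517 without R30-1, 0.0809 without R30-2, 0.168 without R30-3, 0.105 without R60-2, 0.193 without R60-3) and E2f8 (0.0514 without R30-1, 0.0729 without R30-3, 0.0619 without R60-3).

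Transcription factors of hepatocyte identity moved in both directions. Of 28 tested, 5 were called higher and 3 lower, beside 3.38% and 2.45% of all genes, with a median of 0.037. Besides Onecut1, the risers named are Gata4, with 1966, 2172 and 1923 in refed 60 min livers, against 1082, 1150 and 1089 in refed 30 min livers (0.87 ± 0.10, adjusted p = 1.82e-05), Onecut2, with 5865, 7124 and 7777 in refed 60 min livers, against 4447, 4642 and 4655 in refed 30 min livers (0.59 ± 0.12, adjusted p = 0.00486), and Foxa1, with 2278, 3048 and 2932 in refed 60 min livers, against 1623, 1834 and 1478 in refed 30 min livers (0.74 ± 0.19, adjusted p = 0.0223). The fifth riser, Foxa3, had a log2 fold change of 0.50. The libraries of Gata4 at each time agree closely. The fallers were the nuclear receptor PXR, Nr1i2, with 2852, 2729 and 3617 in refed 60 min livers, against 3885, 4146 and 4333 in refed 30 min livers (-0.44 ± 0.12, adjusted p = 0.0244), the repressor SHP, Nr0b2, with 919, 695 and 967 in refed 60 min livers, against 1761, 1346 and 2238 in refed 30 min livers (-1.03 ± 0.28, adjusted p = 0.0254), and the factor C/EBP beta, Cebpb, with 740, 569 and 495 in refed 60 min livers, against 1263, 1108 and 2021 in refed 30 min livers (-1.25 ± 0.35, adjusted p = 0.035). Each of the 3 fallers has 60 min libraries wholly below the 30 min ones. Without R30-1, R30-3 or R60-2, 0 of the list were called lower by limma, and without R60-1, 1 was. The higher calls were 3 without R30-1, R30-3 or R60-2. Single libraries ended the calls of Foxa1 (0.0847 without R30-1, 0.0988 without R30-3, 0.085 without R60-2, 0.0785 without R60-3), Foxa3 (0.0968 without R30-1, 0.149 without R30-3, 0.0737 without R60-1, 0.0896 without R60-2), Nr1i2 (0.0547 without R30-1, 0.0601 without R30-2, 0.101 without R30-3, 0.0988 without R60-1, 0.113 without R60-2), Nr0b2 (0.0912 without R30-1, 0.136 without R30-3, 0.0525 without R60-1, 0.105 without R60-2) and Cebpb (0.0847 without R30-1, 0.177 without R30-3, 0.0859 without R60-2, 0.123 without R60-3).

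Some immediate early genes fell. Of 37 tested, 5 were called lower and 0 higher, beside 2.45% of all genes called lower, 9 lay above 0, and the median was -0.38. Nr4a1 (ENSMUSG00000023034, chr15:101254269-101274795), a nuclear receptor induced within minutes by many signals, had 254, 122 and 230 in refed 60 min livers, against 542, 1253 and 1889 in refed 30 min livers (-2.49 ± 0.40, adjusted p = 0.000539). The fasted livers held 96, 94 and 96, below every refed library of 30 and 60 min. Btg2, an antiproliferative factor, had 456, 420 and 513 in refed 60 min livers, against 1479, 1296 and 1461 in refed 30 min livers (-1.61 ± 0.25, adjusted p = 0.000352), and Csrnp1, a nuclear protein induced by AXIN1, had 586, 635 and 607 in refed 60 min livers, against 1830, 1367 and 1229 in refed 30 min livers (-1.25 ± 0.19, adjusted p = 0.0004). Sik1, a salt-inducible kinase, had 1840, 316 and 462 in refed 60 min livers, against 2009, 2278 and 2681 in refed 30 min livers (-1.84 ± 0.44, adjusted p = 0.0134). R60-1 of Sik1 stood close under the 30 min libraries, and R60-2 and R60-3 far below them. The fifth called member, Ier2, had a log2 fold change of -0.46. The count was 3 without R30-3. Leaving out 1 library ended the calls of Sik1 (0.0598 without R30-3, 0.092 without R60-2, 0.0695 without R60-3) and Ier2 (0.0537 without R30-1, 0.087 without R30-3, 0.0993 without R60-1). Fos, with 84, 61 and 67 in refed 60 min livers, against 74, 95 and 113 in refed 30 min livers, and Egr1, with 330, 196 and 209 in refed 60 min livers, against 564, 411 and 607 in refed 30 min livers, were not called (Fos -0.40 ± 0.42, adjusted p = 0.689, Egr1 -1.12 ± 0.38, adjusted p = 0.0866). The Fos libraries of the 2 times overlap and those of Egr1 do not. Only 3 of the called members had a promoter window, of which Btg2 held the cAMP response element TGACGTCA.

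Genes that rose at 30 min against fasted livers and fell again by 60 min are described by values, because both comparisons share the 30 min libraries, so that a high value there enters both. Nr4a1 and Csrnp1, above, were among them, and some mitotic genes described below were too. Plk3, a polo-like kinase of the stress response, had values of 2399, 2393 and 1417 in fasted livers, 5108, 6966 and 5027 at 30 min and 1841, 1841 and 1868 at 60 min. Ppp1r10, the PNUTS subunit of a nuclear phosphatase, had 1199, 798 and 897 in fasted livers, 3657, 3936 and 3347 at 30 min and 1531, 2193 and 2031 at 60 min. Ppp1r10 stayed above every fasted library at 60 min, and Plk3 did not. Tob1, an antiproliferative protein related to Btg2, had 4563, 4900 and 4763 in fasted livers, 8351, 7825 and 8964 at 30 min and 3691, 4712 and 4630 at 60 min. Cdca8, the borealin subunit of the chromosomal passenger complex, had 25, 33 and 19 in fasted livers, 78, 67 and 46 at 30 min and 21, 20 and 27 at 60 min. The opposite course, down at 30 min and back up at 60 min, was shown by Dnajc17 (139, 136 and 155, then 101, 109 and 104, then 154, 143 and 155), Zfp1 (366, 353 and 356, then 244, 264 and 301, then 356, 381 and 393) and the factor Tfap4 (223, 218 and 279, then 154, 115 and 121, then 270, 212 and 157). Without 1 library the call ended for Tfap4 (0.0704 without R30-2, 0.0714 without R30-3, 0.117 without R60-1).

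**Figure D3:**
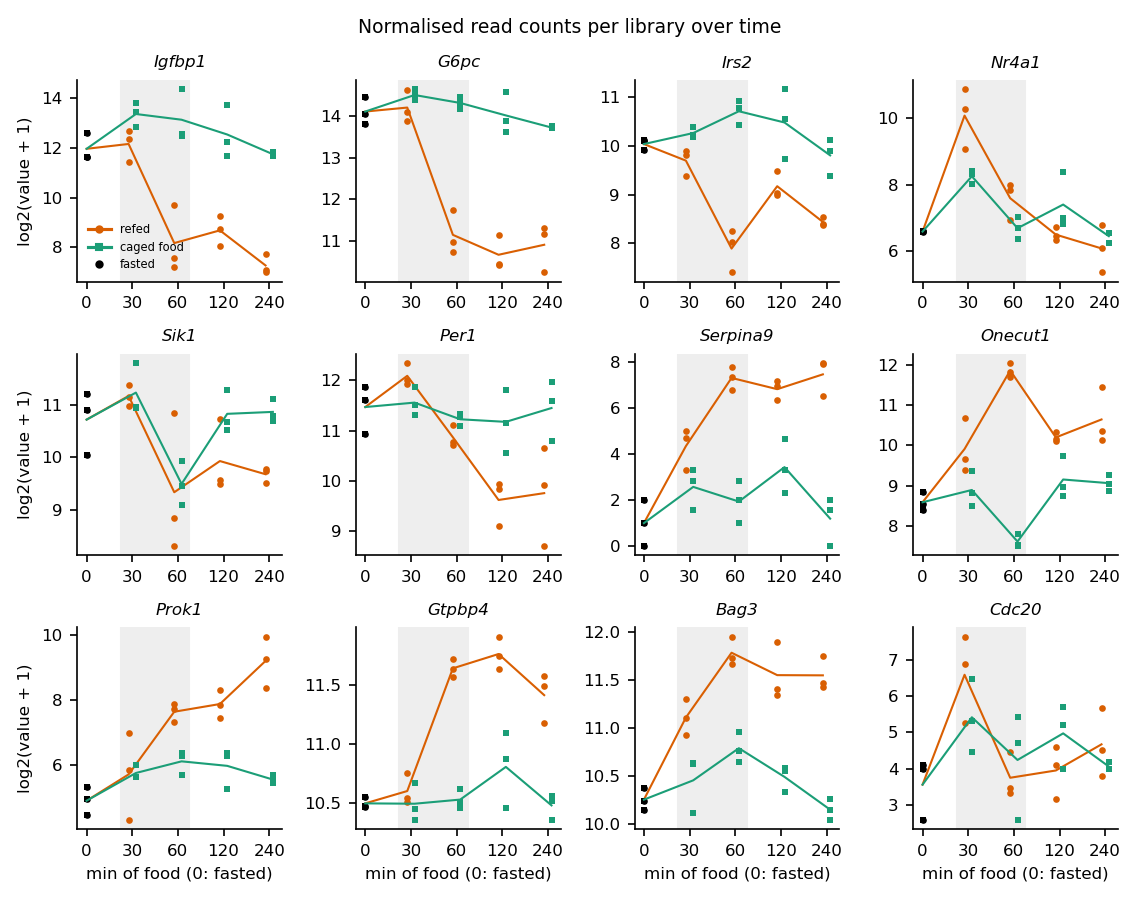
Panels give log2(value + 1) of 12 named genes in every library of fasted livers (black, at 0 min) and of refed (orange circles) and caged food livers (green squares) at 30, 60, 120 and 240 min; lines join the group means and grey bands mark the 30 to 60 min step. At 240 min, 1 refed and 1 caged food library have conflicting labels and are drawn by their titles. Igfbp1, G6pc and Irs2 drop within the band in refed livers, and Serpina9, Onecut1 and Gtpbp4 rise.

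Some genes of mitosis fell, from values that differed widely between the 30 min libraries. Of 27 tested cell cycle genes, 8 were called lower and 0 higher, where 2.45% of all genes tested were called lower, and the median was -1.16. Cdc20 (ENSMUSG00000006398, chr4:118432901-118437352), the activator of the anaphase-promoting complex, had 21, 10 and 9 in refed 60 min livers, against 198, 116 and 37 in refed 30 min livers (-2.84 ± 0.70, adjusted p = 0.0155). Ckap2, a spindle protein, had 17, 6 and 7 in refed 60 min livers, against 154, 83 and 29 in refed 30 min livers (-2.87 ± 0.63, adjusted p = 0.00734), and Cenpf, a kinetochore protein, had 15, 8 and 14 in refed 60 min livers, against 150, 97 and 19 in refed 30 min livers (-2.37 ± 0.59, adjusted p = 0.0168). Ccnb2, cyclin B2, had 22, 9 and 17 in refed 60 min livers, against 188, 107 and 37 in refed 30 min livers (-2.52 ± 0.64, adjusted p = 0.0198), and Knstrn, a spindle protein also called kinastrin that the list does not hold, had 27, 9 and 28 in refed 60 min livers, against 226, 137 and 46 in refed 30 min livers (-2.50 ± 0.66, adjusted p = 0.0238). In each of these 5 genes R30-1 was the highest and R30-3 the lowest library of 30 min. In values of this size, 1 read is worth about 1 unit. Fasted livers held 15, 16 and 5 for Cdc20, a range that overlaps that of the 60 min livers. The count of 8 was 1 without R30-1, 3 without R30-2, 2 without R60-2, 4 without R60-3 and 3 in the fit of only these 6 libraries, and it was 11 without R30-3 and 15 with quality weights. Plk3, which is counted in this list and is known for its part in stress responses, kept its call with each library of the step left out. Against fasted livers, 10 of the 27 were called higher at 30 min, where 1.31% of all genes were, among them Cdc20 (3.03 ± 0.70, adjusted p = 0.0233), Ckap2 (3.17 ± 0.63, adjusted p = 0.00771), Cenpf (2.66 ± 0.59, adjusted p = 0.0169) and Ccnb2 (2.59 ± 0.64, adjusted p = 0.0368). That count was 1 without R30-1, 0 by limma without R30-2 (15 of the 27 with an unadjusted p under 0.05) and 13 without R30-3, and it shares the 30 min libraries with the step. Sensitive to 1 library were the calls of Cdc20 (0.122 without R30-1, 0.0513 without R30-2, 0.0528 without R60-2, 0.0619 without R60-3), Ckap2 (0.074 without R30-1), Cenpf (0.143 without R30-1, 0.0704 without R30-2, 0.0701 without R60-2), Ccnb2 (0.144 without R30-1, 0.0595 without R30-2, 0.0857 without R60-2) and Knstrn (0.162 without R30-1, 0.0715 without R30-2, 0.116 without R60-2). R30-1 is also the library with the pancreatic markers, and the part of that in these calls was not tested. Without R30-1 the median of the list was -0.98.

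The CHR element TTTGAA, a motif of genes expressed late in the cell cycle, was searched on both strands. It was present in 13 of 22 tested cell cycle genes with a window and in 5 of the 6 called ones, Cdk1 and Ckap2 among them, beside 12% of all windows. The 200 bases before the start site are shown for Cdk1 (chr10:69352913-69353112), with matches at -71 and -15, and for Ckap2 (chr8:22185820-22186019), with a match at -101 (GRCm38.p6, both minus strand, in the direction of transcription). Capitals mark the matches. The calls of both genes ended without single libraries, Cdk1 (0.205 without R30-1, 0.132 without R30-2, 0.0919 without R60-2, 0.12 without R60-3) and Ckap2 (0.074 without R30-1).
Cdk1: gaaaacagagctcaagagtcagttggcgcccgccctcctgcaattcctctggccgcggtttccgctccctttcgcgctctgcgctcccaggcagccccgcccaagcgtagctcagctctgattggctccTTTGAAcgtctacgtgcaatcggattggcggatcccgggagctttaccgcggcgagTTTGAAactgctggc
Ckap2: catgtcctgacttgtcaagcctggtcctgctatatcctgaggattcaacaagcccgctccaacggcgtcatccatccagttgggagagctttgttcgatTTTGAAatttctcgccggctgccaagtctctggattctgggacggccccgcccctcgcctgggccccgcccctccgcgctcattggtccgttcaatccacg

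**Figure D4:**
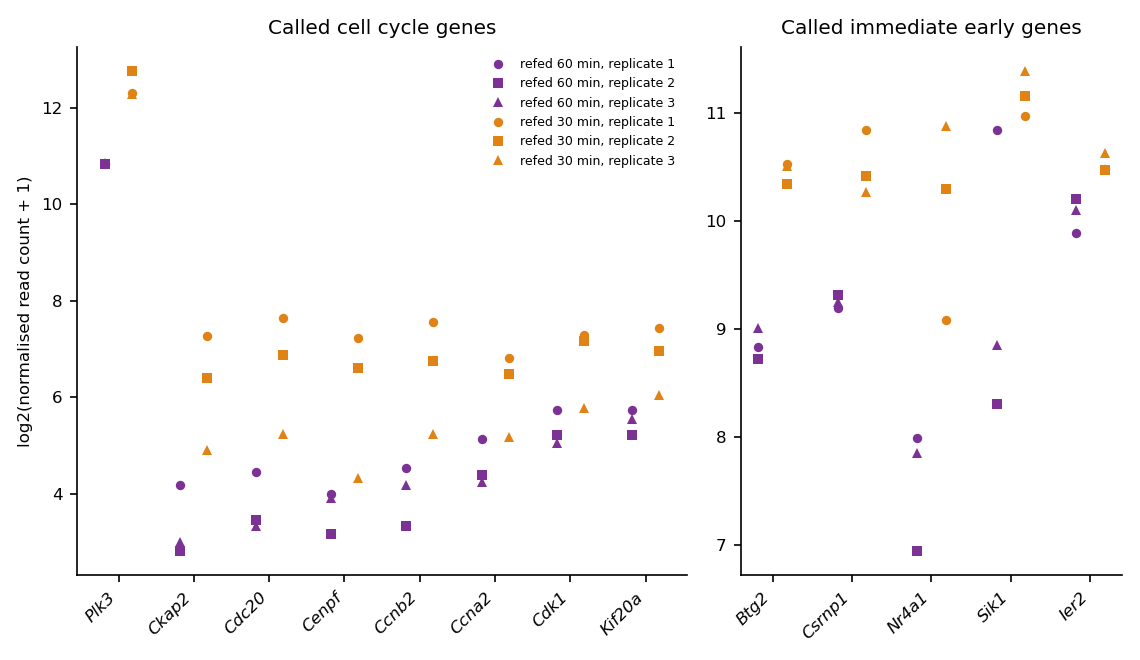
Points give log2(normalised read count + 1) of the 8 called cell cycle genes (left) and the 5 called immediate early genes (right) in each library; purple is refed 60 min and orange refed 30 min, and the shapes give the replicate. In Cdc20, Ccnb2, Ckap2 and Cenpf, replicate 3 of refed 30 min lies lowest of its group and closest to the 60 min livers.

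Other large falls concerned transport and signalling. Kcnk5, a potassium channel, had 754, 838 and 1116 in refed 60 min livers, against 4387, 2301 and 4980 in refed 30 min livers (-2.05 ± 0.32, adjusted p = 0.000435). Slc25a25, a mitochondrial ATP-Mg/phosphate carrier, had 2915, 4075 and 5095 in refed 60 min livers, against 16602, 14656 and 15876 in refed 30 min livers (-2.0 ± 0.39, adjusted p = 0.00283). In both genes every 60 min library lay far below the lowest 30 min library. Rasgef1b, a RAS-family exchange factor, had 510, 598 and 596 in refed 60 min livers, against 1940, 1959 and 2591 in refed 30 min livers (-1.92 ± 0.27, adjusted p = 0.000116), and Pkdrej, a polycystin-family gene, had 33, 34 and 33 in refed 60 min livers, against 170, 160 and 109 in refed 30 min livers (-2.08 ± 0.33, adjusted p = 0.000435). Fam222a had 379, 123 and 63 in refed 60 min livers, against 494, 427 and 894 in refed 30 min livers (-1.99 ± 0.49, adjusted p = 0.0155), with R60-1 closest to the 30 min livers. Ctrl, a pancreatic chymotrypsin-like protease, had 9, 16 and 14 in refed 60 min livers, against 330, 31 and 30 in refed 30 min livers (-2.34 ± 0.67, adjusted p = 0.0382). Its value of 330 stood in R30-1, the library in which 6 acinar markers that were at 0 in R30-2 and R30-3 had 205 to 905, and without R30-1 it was not called. Single libraries ended the calls of Fam222a (0.0936 without R30-3, 0.0538 without R60-2, 0.111 without R60-3) and Ctrl (0.314 without R30-1, 0.13 without R60-1, 0.0606 without R60-2, 0.0778 without R60-3).

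Some genes of amino acid transport and of the stress response to amino acid shortage fell. Of 21 tested transport genes, 5 were called lower and 0 higher (median -0.050), and of 26 tested ATF4 and integrated stress response genes, 4 were called lower and 1 higher (median -0.077). Among all genes, 2.45% were called lower and 3.38% higher. Slc38a2, the amino acid transporter SNAT2, had 2553, 2975 and 3426 in refed 60 min livers, against 7619, 8255 and 10531 in refed 30 min livers (-1.56 ± 0.21, adjusted p = 0.0001). Slc7a2, a cationic amino acid transporter, had 58944, 61155 and 50744 in refed 60 min livers, against 95893, 96415 and 82664 in refed 30 min livers (-0.69 ± 0.13, adjusted p = 0.00271). Slc25a25, above, and Slc25a33, with 435, 443 and 483 in refed 60 min livers, against 710, 832 and 686 in refed 30 min livers (-0.71 ± 0.13, adjusted p = 0.00195), are in the list and carry nucleotides across the mitochondrial membrane, not amino acids. The fifth call is Slc38a4, an amino acid transporter, at -0.38. Sesn2, a leucine sensor that restrains mTORC1, had 335, 326 and 248 in refed 60 min livers, against 1021, 733 and 933 in refed 30 min livers (-1.56 ± 0.20, adjusted p = 7.09e-05). Trib3, a pseudokinase that binds AKT, had 285, 257 and 331 in refed 60 min livers, against 1071, 580 and 788 in refed 30 min livers (-1.44 ± 0.28, adjusted p = 0.00265). For Sesn2 and Trib3 the 2 times do not overlap. Pycr1, an enzyme of proline synthesis, had 8, 5 and 7 in refed 60 min livers, against 14, 14 and 20 in refed 30 min livers (-1.15 ± 0.31, adjusted p = 0.029). Ddit3, which encodes CHOP, went the other way with 1202, 854 and 780 in refed 60 min livers, against 443, 604 and 404 in refed 30 min livers (0.96 ± 0.21, adjusted p = 0.00734). The fourth of the fallers is C/EBP beta, described above. Fewer calls were made without R30-1, R30-3 or R60-2, with 2 lower each, and without R60-1 Ddit3 was not called. Atf4 itself had 5159, 4284 and 5032 in refed 60 min livers, against 4822, 4896 and 4494 in refed 30 min livers and was not called (0.02 ± 0.10, adjusted p = 0.942). Leaving out 1 library ended the calls of Slc38a4 (0.127 without R30-1, 0.0833 without R30-3, 0.15 without R60-1), Pycr1 (0.0703 without R30-1, 0.134 without R30-3, 0.113 without R60-2, 0.0581 without R60-3) and Ddit3 (0.0547 without R60-1).

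Some glucocorticoid-induced genes and pro-apoptotic BCL2 genes fell. Of 21 tested glucocorticoid-induced genes, 4 were called lower and 0 higher, beside 2.45% of all genes called lower, 2 lay above 0, and the median was -0.68. They include Klf15, a factor of amino acid breakdown in fasting, with 6177, 7621 and 6707 in refed 60 min livers, against 11573, 10623 and 11999 in refed 30 min livers (-0.74 ± 0.14, adjusted p = 0.00233), and Tat, tyrosine aminotransferase, with 87992, 71470 and 59595 in refed 60 min livers, against 137438, 172635 and 154718 in refed 30 min livers (-1.10 ± 0.22, adjusted p = 0.00377). Both are also counted in the list of glucose production. Tsc22d3, the glucocorticoid-induced leucine zipper GILZ, had 1491, 2952 and 2784 in refed 60 min livers, against 4554, 4314 and 7241 in refed 30 min livers (-1.18 ± 0.31, adjusted p = 0.0246). Angptl4, a secreted inhibitor of lipoprotein lipase that is counted here and among the PPARA targets, had 1857, 1141 and 1441 in refed 60 min livers, against 3655, 3741 and 4011 in refed 30 min livers (-1.39 ± 0.22, adjusted p = 0.000561). It was the only called gene among the 34 tested PPARA targets, whose median was 0.064, a share near the 2.45% of all genes. Of 16 tested BCL2 family genes, 5 were called lower and 0 higher, beside the same 2.45% of all genes called lower. All 4 of those named are BH3-only genes, which promote cell death. They are Bcl2l11 (BIM) with 303, 337 and 335 in refed 60 min livers, against 691, 528 and 643 in refed 30 min livers (-0.92 ± 0.15, adjusted p = 0.000435), Bbc3 (PUMA) with 191, 127 and 117 in refed 60 min livers, against 259, 262 and 215 in refed 30 min livers (-0.78 ± 0.17, adjusted p = 0.00543), Bik with 163, 158 and 126 in refed 60 min livers, against 276, 236 and 239 in refed 30 min livers (-0.75 ± 0.17, adjusted p = 0.01) and Bmf with 145, 305 and 258 in refed 60 min livers, against 775, 458 and 712 in refed 30 min livers (-1.49 ± 0.35, adjusted p = 0.0116). No 60 min library of these 4 genes reached its lowest 30 min library. The fifth call, Bok, a member with several BH domains, was at -0.58. The BCL2 count was 2 without R30-1 and 3 without R30-3, R60-1 or R60-3. Without 1 library the calls ended for Tsc22d3 (0.0582 without R30-1, 0.142 without R30-3, 0.155 without R60-1), Bik (0.0675 without R30-1, 0.0577 without R60-3), Bmf (0.0757 without R30-1, 0.0524 without R30-3, 0.0792 without R60-1) and Bok (0.162 without R30-1, 0.235 without R30-3, 0.0773 without R60-1, 0.211 without R60-3).

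Genes of cytokine signalling and of the clock gave 7 calls. Of 25 tested SOCS and STAT genes, 2 were called higher and 2 lower, beside 3.38% and 2.45% of all genes. Lifr, the receptor of leukaemia inhibitory factor, had 16223, 23220 and 21517 in refed 60 min livers, against 14097, 11063 and 9530 in refed 30 min livers (0.82 ± 0.14, adjusted p = 0.00122), and Il6ra, the receptor of interleukin 6, had 1548, 2819 and 2299 in refed 60 min livers, against 3911, 3960 and 3653 in refed 30 min livers (-0.83 ± 0.19, adjusted p = 0.00921). These 2 receptors, which use the same signalling partner gp130, thus had opposite signs. Pim3, a kinase, had 1818, 2522 and 2780 in refed 60 min livers, against 5953, 4373 and 4895 in refed 30 min livers (-1.11 ± 0.29, adjusted p = 0.0244). The fourth is Onecut1, which stands in the list and encodes no member of this pathway. Of 20 tested clock genes, 3 were called lower, beside the same 2.45%: Cry2 with 1531, 1618 and 1772 in refed 60 min livers, against 2576, 2030 and 2211 in refed 30 min livers (-0.47 ± 0.11, adjusted p = 0.0155), Nfil3 with 552, 533 and 463 in refed 60 min livers, against 890, 1015 and 1008 in refed 30 min livers (-0.91 ± 0.23, adjusted p = 0.0193) and Rora with 2139, 2818 and 3061 in refed 60 min livers, against 3366, 3800 and 3581 in refed 30 min livers (-0.44 ± 0.12, adjusted p = 0.0308). Per1 had 1742, 1685 and 2215 in refed 60 min livers, against 4103, 3880 and 5216 in refed 30 min livers and missed the threshold (-1.22 ± 0.37, adjusted p = 0.0541), and the clock output factor Dbp had 1532, 2627 and 3269 in refed 60 min livers, against 3365, 1901 and 1812 in refed 30 min livers (0.06 ± 0.40, adjusted p = 0.966). The Per1 libraries do not overlap, whereas those of Dbp do. Per2 also missed the threshold, on the higher side and without overlap (0.92 ± 0.29, adjusted p = 0.0619). It had 1771, 2641 and 4031 in refed 60 min livers, against 1594, 1383 and 1256 in refed 30 min livers. Of the 20 clock genes, 6 lay above 0 and 14 below. The clock count was 0 by limma without R30-1 and 1 lower without R30-2, R30-3 or R60-1. Of 23 tested MAPK feedback genes, 1 was called, beside 2.45% of all genes called lower. It was Erbb3, a receptor of the EGF family, with 4164, 3846 and 3836 in refed 60 min livers, against 9214, 6624 and 8947 in refed 30 min livers (-1.05 ± 0.14, adjusted p = 7.09e-05). Sensitive to 1 library were the calls of Il6ra (0.0715 without R60-1), Pim3 (0.13 without R30-1, 0.0662 without R30-3, 0.119 without R60-1), Cry2 (0.126 without R30-1, 0.0714 without R60-1), Nfil3 (0.0518 without R30-1, 0.0561 without R30-2, 0.068 without R30-3, 0.0749 without R60-3) and Rora (0.0647 without R30-1, 0.104 without R30-2, 0.0852 without R30-3, 0.203 without R60-1).

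Chromatin readers and elongation factors gave 4 calls. Of 23 tested, 1 was called higher and 3 lower, beside 3.38% and 2.45% of all genes (median -0.074). The fallers include Ppp1r10, described above, and Brd3, a bromodomain protein that binds acetylated histones, with 2050, 2203 and 1878 in refed 60 min livers, against 2525, 2324 and 2575 in refed 30 min livers (-0.28 ± 0.08, adjusted p = 0.0411). The Brd3 call ended when single libraries were left out, Brd3 (0.149 without R30-1, 0.149 without R30-3, 0.0889 without R60-1, 0.182 without R60-3).

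In genes of the secretory pathway and of lipid synthesis, the share called was near that of all genes, of which 3.38% were called higher and 2.45% lower. Of 28 tested ER folding genes, 1 was called higher, Xbp1, the transcription factor of the unfolded protein response, with 13040, 15862 and 15409 in refed 60 min livers, against 11203, 10936 and 9119 in refed 30 min livers (0.50 ± 0.11, adjusted p = 0.00596). Hspa5, the ER chaperone BiP, had 52684, 45100 and 52536 in refed 60 min livers, against 31613, 36470 and 26939 in refed 30 min livers and missed the threshold (0.67 ± 0.22, adjusted p = 0.0765), although its libraries do not overlap. The same holds for Creld2 (1.03 ± 0.33, adjusted p = 0.0706) and Hyou1 (0.62 ± 0.21, adjusted p = 0.094). Of the 28 ER folding genes, 19 lay above 0 and 9 below, with a median of 0.13. Against fasted livers, 7 were called higher at 60 min, where 7.26% of all genes were. That comparison shares libraries with the step. From 30 to 60 min of caged food, the median of the same 28 genes was 0.36. Hspa5 had 0.64, Creld2 0.64 and Hyou1 0.56 there. None of the 28 was called in the caged food step by limma, where 1683 of all genes had an unadjusted p under 0.05. Sdf2l1, another ER chaperone component, had 1304, 1037 and 989 in refed 60 min livers, against 1007, 983 and 554 in refed 30 min livers (0.43 ± 0.36, adjusted p = 0.595). Of 20 ER-associated degradation genes, 1 was called higher, the ubiquitin ligase Syvn1, with 8477, 6344 and 5814 in refed 60 min livers, against 4089, 4506 and 4079 in refed 30 min livers (0.69 ± 0.18, adjusted p = 0.0238). Of 33 COPII and translocon genes, 2 were called higher, the coat subunits Sec24c with 6994, 6490 and 6142 in refed 60 min livers, against 5727, 5355 and 5601 in refed 30 min livers (0.23 ± 0.06, adjusted p = 0.0281) and Sec23b with 2207, 2105 and 2435 in refed 60 min livers, against 1597, 1980 and 1582 in refed 30 min livers (0.39 ± 0.11, adjusted p = 0.0325). Leaving out 1 library ended the calls of Xbp1 (0.0509 without R30-3), Syvn1 (0.0967 without R30-1, 0.0813 without R30-3, 0.14 without R60-1), Sec24c (0.0628 without R30-1, 0.103 without R30-2, 0.0715 without R30-3, 0.142 without R60-1, 0.0595 without R60-2) and Sec23b (0.163 without R30-1, 0.145 without R30-3, 0.0703 without R60-1, 0.134 without R60-3). None of 20 lipogenesis, 25 cholesterol synthesis, 18 NRF2 target or 25 acute phase genes was called by limma, with medians of 0.093, 0.087, 0.011 and -0.13, while 2945 of all genes had an unadjusted p under 0.05.

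Of 23 tested genes of glucose use and glycogen, 1 was called higher and 1 lower, shares near those of all genes. Pfkfb3, which makes the activator of phosphofructokinase, had 1155, 1303 and 1883 in refed 60 min livers, against 903, 792 and 691 in refed 30 min livers (0.84 ± 0.24, adjusted p = 0.0431), and Arrdc4, an arrestin-domain protein, had 641, 490 and 458 in refed 60 min livers, against 1041, 803 and 1012 in refed 30 min livers (-0.85 ± 0.16, adjusted p = 0.00179). Srebf1, the lipogenic factor SREBP1, had 1100, 2590 and 1701 in refed 60 min livers, against 1678, 1592 and 2846 in refed 30 min livers (-0.22 ± 0.34, adjusted p = 0.817), and Txnip, an arrestin family member that limits glucose uptake, had 2431, 2541 and 2764 in refed 60 min livers, against 2584, 2574 and 2315 in refed 30 min livers (0.05 ± 0.11, adjusted p = 0.871). The Txnip and Srebf1 libraries of the 2 times overlap. Without 1 library the call ended for Pfkfb3 (0.079 without R30-1, 0.089 without R30-2, 0.158 without R30-3, 0.067 without R60-2, 0.203 without R60-3).

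Some genes passed a fixed level between the 2 times. A gene was counted as switching on when all 3 libraries of 30 min were under 10 and all 3 of 60 min at 10 or more, and as switching off in the reverse case. Of all genes tested, 19 switched on and 45 off, and of these 2 and 13 were called. The filter of the test was also a value of 10 or more in 3 or more libraries. Every gene that switched therefore passed it through the 3 libraries of its high group, and the counts are given as a description only. Ccl3, a macrophage chemokine, had 22, 16 and 18 in refed 60 min livers, against 5, 6 and 8 in refed 30 min livers (1.43 ± 0.39, adjusted p = 0.0291), and Snord35a, a small nucleolar RNA that lies within the Rpl13a gene and may share its reads, had 17, 15 and 19 in refed 60 min livers, against 2, 8 and 6 in refed 30 min livers (1.64 ± 0.46, adjusted p = 0.0328). The fasted livers held 16, 25 and 13 for Ccl3 and 11, 6 and 8 for Snord35a, so Ccl3 was above 10 there in every library. Of those that switched off, Cdkn3, a phosphatase of cyclin-dependent kinases, had 2, 0 and 1 in refed 60 min livers, against 62, 23 and 11 in refed 30 min livers (-3.85 ± 0.88, adjusted p = 0.00954). Diap3, a formin, had 7, 2 and 2 in refed 60 min livers, against 35, 32 and 10 in refed 30 min livers (-2.50 ± 0.71, adjusted p = 0.036). The protein-coding 4931429L15Rik had 1, 0 and 1 in refed 60 min livers, against 30, 18 and 12 in refed 30 min livers (-3.63 ± 0.69, adjusted p = 0.0023), and 9130230L23Rik had 2, 4 and 6 in refed 60 min livers, against 25, 32 and 12 in refed 30 min livers (-2.24 ± 0.57, adjusted p = 0.0199). The noncoding RNA RP23-34P11.1 had 7, 4 and 2 in refed 60 min livers, against 38, 24 and 20 in refed 30 min livers (-2.47 ± 0.33, adjusted p = 9.42e-05). The fasted livers had mean values under 10 for Cdkn3 (3.33), Diap3 (3), 4931429L15Rik (1) and 9130230L23Rik (6.33), and of 23.7 for RP23-34P11.1. Those with a fasted mean under 10 were thus low before eating, high at 30 min and low again at 60 min. At 10 units these libraries hold about 10 reads each, so on and off are near the limit of detection. Sensitive to 1 library were the calls of Ccl3 (0.135 without R30-1, 0.0699 without R30-2, 0.104 without R60-1, 0.0667 without R60-3), Snord35a (0.235 without R30-1, 0.0585 without R30-3, 0.0855 without R60-1, 0.0595 without R60-2, 0.096 without R60-3), Cdkn3 (0.0815 without R30-1), Diap3 (0.172 without R30-1, 0.114 without R30-2, 0.112 without R60-2, 0.12 without R60-3) and 9130230L23Rik (0.091 without R30-1, 0.0838 without R30-2, 0.0974 without R60-1).

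The called genes were then followed to 120 and 240 min, in libraries outside the 2 groups of the step. All these comparisons come from the same fit of 27 libraries and share its standard error per gene. The counts called below are therefore not independent of the step calls. Of the 539 risers, 97.0% lay above fasted livers at 120 min and 93.5% at 240 min. Among all genes tested, 49.9% and 50.6% did. At 120 min 360 of the risers were called higher than fasted livers, which is 66.8% of the risers and 28.4% of the genes called higher then, where 7.95% of all genes tested were called higher. At 240 min the 339 called higher were 62.9% of the risers and 16.4% of that list, where 12.9% of all were. Without the 2 libraries of 240 min with conflicting labels, 92.8% of the risers lay above fasted livers and 296 were called higher, 54.9% of the risers and 16.7% of that list, where 11.1% of all were. Of the 390 fallers, 87.4% lay below fasted livers at 120 min and 84.9% at 240 min. Among all genes tested, 50.1% and 49.4% did. At 120 min 184 of them were called lower, 47.2% of the fallers and 18.8% of that list, where 6.13% of all were. At 240 min 213 were, 54.6% of the fallers and 11.7% of that list, where 11.4% of all were. Without the same 2 libraries, 84.9% of the fallers lay below fasted livers and 198 were called lower, 50.8% of the fallers and 13.1% of that list, where 9.47% of all were.

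Single genes show these courses. The third value at 240 min is that of the refed library with the conflicting label, and each statement on overlap below also holds without it. Serpina9 held 79, 141 and 123 at 120 min and 246, 89 and 240 at 240 min. G6pc held 2248, 1385 and 1393 and then 1215, 2316 and 2539. For both, the libraries at 120 and 240 min overlap those of 60 min. Prok1 had 175, 319 and 231 and then 988, 333 and 619. Its libraries of 240 min lay above all of 60 min. E2f8 had 328, 323 and 399 and then 245, 149 and 124, beside 384, 152 and 300 in fasted livers. The 240 min libraries of E2f8 lay below all of 60 min. Kcnk5 had 1733, 1700 and 1425 and then 1510, 1746 and 2097, above all of 60 min, beside 2901, 3825 and 1841 in fasted livers. The step calls of Serpina9, Prok1 and E2f8 were among those that single libraries ended, Serpina9 (0.0632 without R30-3), Prok1 (0.0988 without R30-3, 0.0514 without R60-1) and E2f8 (0.0514 without R30-1, 0.0729 without R30-3, 0.0619 without R60-3).

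The same interval was compared in livers of mice that could sense food and not eat it. Kupffer cell markers summed to 46392 in caged food 60 min replicate 2, against 17131 and 19807 in replicates 1 and 3. Leukocyte markers summed to 2561 in that library, against 557 and 733. Hepatocyte markers made up 10.2% to 14.6% of the total in caged food 60 min livers. The part of these differences in the caged food step, and in the comparison of the 2 steps below, was not tested. Caged food 60 min against caged food 30 min called 27 genes (0.169%), 13 higher and 14 lower, while 1683 had an unadjusted p under 0.05. Of the 539 genes that rose with eating, 4 were called higher with caged food and 0 lower, where 0.0816% and 0.0879% of all genes were. Of the 390 that fell, 5 were called lower and 2 higher. The 27 calls rest on single libraries: 8 were called without caged food 60 min replicate 1, 10 without caged food 30 min replicate 3, 14 without caged food 30 min replicate 1 and 17 without caged food 60 min replicate 3, and 0 without both caged food libraries that stood apart on the second component, where 1460 genes had an unadjusted p under 0.05. Slc25a25 had 5076, 4621 and 3832 in caged food 60 min livers, against 28468, 19215 and 19359 in caged food 30 min livers (-2.29 ± 0.39, adjusted p = 0.0122), a fall as with eating. Arrdc3 had 12441, 9540 and 11385 in caged food 60 min livers, against 1117, 5297 and 2266 in caged food 30 min livers (2.22 ± 0.41, adjusted p = 0.021), a rise as with eating, although its call with eating ended when single libraries were left out, Arrdc3 (0.0819 without R30-1, 0.0619 without R30-2, 0.0547 without R60-1, 0.0564 without R60-3). Tob1 had 4852, 3387 and 4038 in caged food 60 min livers, against 6535, 6315 and 7305 in caged food 30 min livers (-0.73 ± 0.13, adjusted p = 0.0147). These 3 genes were called in both settings with the same sign. Their steps did not pass the test of a difference (Slc25a25 0.29 ± 0.55, adjusted p = 0.907, Arrdc3 -0.58 ± 0.58, adjusted p = 0.787, Tob1 -0.23 ± 0.18, adjusted p = 0.715).

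The 2 steps were compared directly, as the eating step minus the caged food step. The difference was called for 112 genes (0.703%), 34 with a higher step in eating and 78 with a lower one. Of the 539 risers 29 were among the 34, and of the 390 fallers 68 were among the 78. Of all genes tested, 0.213% were among the 34 and 0.49% among the 78. The difference contains the eating step and its libraries, so this overlap is in part built in. Ip6k2, an inositol hexakisphosphate kinase, had the lowest p. Its values were 624, 676 and 676 in refed 60 min livers, against 1296, 934 and 1274 in refed 30 min livers (-0.81 ± 0.16, adjusted p = 0.0028), and 3786, 5544 and 4520 in caged food 60 min livers, against 2170, 2110 and 2272 in caged food 30 min livers (1.06 ± 0.16, adjusted p = 0.0109). The 2 treatments moved it in opposite directions, with a difference of -1.87 ± 0.22, adjusted p = 0.000294. Onecut1 had 222, 178 and 182 in caged food 60 min livers, against 659, 355 and 452 in caged food 30 min livers, and a difference of 3.25 ± 0.44, adjusted p = 0.000418. G6pc had 22309, 20459 and 18430 in caged food 60 min livers, against 21226, 23027 and 25575 in caged food 30 min livers, and a difference of -2.86 ± 0.39, adjusted p = 0.000418. In caged food livers the G6pc libraries of the 2 times overlap. Gata4 had a difference of 0.97 ± 0.14, adjusted p = 0.000502, Gtpbp4 of 1.0 ± 0.18, adjusted p = 0.00453, and B4galt1 of 0.96 ± 0.17, adjusted p = 0.00633.

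Further genes had low p-values in this comparison. Ints2, an Integrator subunit, had 448, 490 and 523 in refed 60 min livers, against 218, 286 and 258 in refed 30 min livers and a difference of 0.98 ± 0.16, adjusted p = 0.00195. Hus1, a subunit of the checkpoint clamp of DNA damage, had 529, 493 and 448 in refed 60 min livers, against 366, 339 and 341 in refed 30 min livers and a difference of 0.82 ± 0.13, adjusted p = 0.00154. Wdr37, a WD repeat protein, had 872, 903 and 940 in refed 60 min livers, against 580, 642 and 621 in refed 30 min livers and a difference of 0.63 ± 0.10, adjusted p = 0.00237. Among the falls, Dnmbp, a scaffold of dynamin, had 984, 888 and 798 in refed 60 min livers, against 1551, 1361 and 1522 in refed 30 min livers and a difference of -1.11 ± 0.14, adjusted p = 0.000333. Tcp11l2 had 764, 803 and 888 in refed 60 min livers, against 1508, 1230 and 1455 in refed 30 min livers and a difference of -1.05 ± 0.13, adjusted p = 0.000333. Chic2 had 521, 492 and 520 in refed 60 min livers, against 816, 792 and 810 in refed 30 min livers and a difference of -0.79 ± 0.11, adjusted p = 0.000418. The libraries of these 6 genes do not overlap between 60 and 30 min of eating. Cpeb2, which binds messages to control their translation, had 738, 920 and 811 in refed 60 min livers, against 2115, 1866 and 2482 in refed 30 min livers and a difference of -1.71 ± 0.24, adjusted p = 0.000418. Slc8b1, the mitochondrial sodium-calcium exchanger, had 1271, 1642 and 1777 in refed 60 min livers, against 3627, 2781 and 3427 in refed 30 min livers and a difference of -1.24 ± 0.18, adjusted p = 0.000636. In the lists, 7 of the gluconeogenesis and FOXO1 genes had a lower step in eating, where 0.49% of all genes did. So did 3 glucocorticoid-induced genes and 3 amino acid transport genes, and 5 ribosome biogenesis genes had a higher one, where 0.213% of all did. None of the cell cycle or heat shock genes was called in the difference by limma, where 1760 of all genes had an unadjusted p under 0.05. The count of 112 was 58 without R30-3, 64 without R30-1, 58 without caged food 60 min replicate 1 and 64 without caged food 30 min replicate 3.

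**Figure D5:**
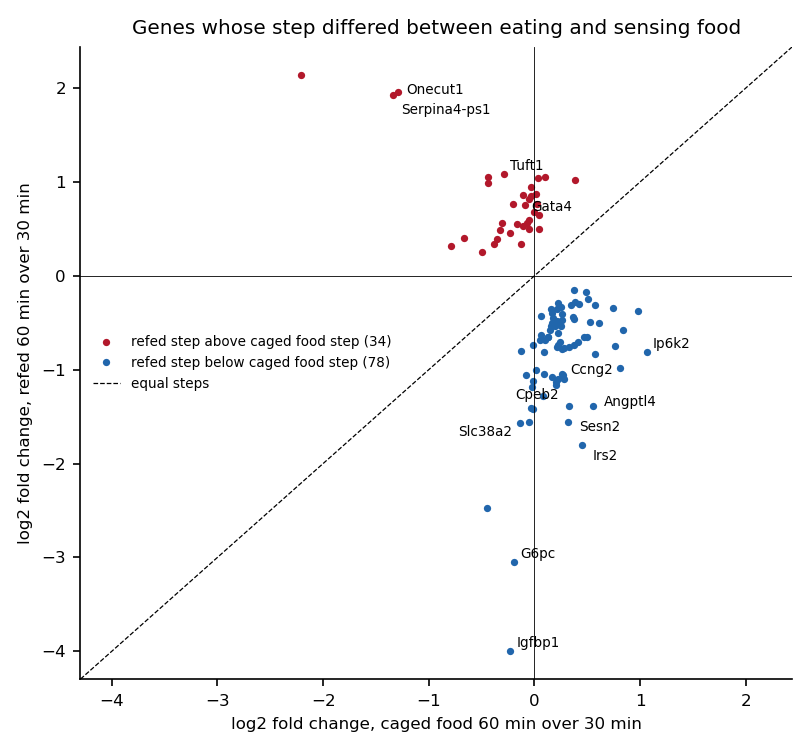
Each point is 1 of the 112 genes whose step differed; the vertical axis gives the log2 fold change of refed 60 min over refed 30 min and the horizontal axis that of caged food 60 min over caged food 30 min, with 3 libraries in each group. Red points (34) lie above and blue points (78) below the dashed line of equal steps, and Ip6k2 lies to the right of 0 on the horizontal axis and below 0 on the vertical axis.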

How the data were processed

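Liver mRNA libraries (TruSeq stranded, per the labels' protocols) were aligned to mm10 (GRCm38) with STAR 2.4.0a and counted per gene with featureCounts 1.4.5-p1 of Subread, per the submitters' processing notes. The deposited table holds a score per gene and library: counts that the authors scaled per library and rounded. The scaling method is not given in the sources used here. The values are not raw counts, so no count model was used. What 1 read is worth was estimated from gaps and doublings among low values, and was off by at most 0.125% on simulated tables.

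Genes with a value of 10 or more in 3 or more of 27 libraries were tested (15932 of 45706). log2(value + 1) was fitted with limma 3.58.1 (R 4.3.3, mean-variance trend) to 9 group means of all 27 libraries. Within each comparison the p-values of all genes tested were adjusted together (Benjamini-Hochberg). On simulated data for refed 60 min against refed 30 min (15900 genes), 67, 67 and 66 genes were changed 1.5, 2 and 4 times. Of these, 59.7%, 89.6% and 97.0% were called, beside 8 of 15700 unchanged genes. In the measured data, leaving out single libraries changed the counts of calls. Whether the simulated shares hold for such libraries, or for genes with low values taken separately, was not tested. Coordinates are from GENCODE M21 (GRCm38). Python 3.11.15, numpy 2.4.6, pandas 2.3.3 and matplotlib 3.10.9 were used.

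The members and the 36 lists (26 gene groups, 10 cell types) were chosen with earlier results of these data known. Named genes are the 15 largest rises and falls with non-overlapping libraries and a mean of 50 or more in the higher group (no predicted, clone-named, X-inactivation or Y-linked genes), up to 4 called members of lowest p per list and called members in the other direction, up to 5 switching genes each way, up to 6 reversing genes each way, up to 8 genes each way of lowest p in the difference, a panel of 20, and the defining markers of a cell type whose summed value moved with the step or with 1 library (the acinar markers). Ier2, Foxa3, Slc38a4, Bok, Cdk1, Klf11, Klf3 and Fkbp4 fall outside this rule and were named after their values were seen. So do Per2, Creld2, Hyou1, Hspd1 and Hspe1, which were not called and were not followed singly under the alternatives below. Some genes under this rule are counted in the totals and not reported here by name. Other libraries of the study are not analysed here. In the table used, 2 libraries of 240 min carry a treatment label that conflicts with the title by which they were grouped. Overlaps at 240 min without them, and cell cycle counts at 30 min without single libraries, were added after the data were seen. Alternatives were quantile normalization, a pseudocount of 5, other filters, a replicate block, only the groups compared, quality weights, and each library or the conflicting pair left out.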

Additional observations from a re-analysis of the deposited data

Results flagged for a closer look

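Of 116 named genes, 34 had a step in refed livers that differed from the step in caged food livers, by the limma test of the difference itself over all genes tested. Among all 15932 genes, 112 did (0.703%). Up to 8 genes each way were named for their low p in this same test, so the count of 34 is in part set by that choice. The values are the refed step minus the caged food step, on the log2 scale. Higher in refed livers were Serpina4-ps1 (3.26 ± 0.63), Onecut1 (3.25 ± 0.44), Tuft1 (1.37 ± 0.23), Gtpbp4 (1.0 ± 0.18), Ints2 (0.98 ± 0.16), Gata4 (0.97 ± 0.14), B4galt1 (0.96 ± 0.17), Gar1 (0.86 ± 0.19), Hus1 (0.82 ± 0.13), Nip7 (0.74 ± 0.15), Wdr37 (0.63 ± 0.10) and Wdr75 (0.61 ± 0.13). Lower in refed livers among genes of fasting were Igfbp1 (-3.77 ± 0.80), G6pc (-2.86 ± 0.39), Irs2 (-2.26 ± 0.36), Angptl4 (-1.95 ± 0.32), Sesn2 (-1.88 ± 0.29), Ccng2 (-1.37 ± 0.19), Tat (-1.32 ± 0.31), Klf15 (-0.97 ± 0.20) and Bbc3 (-1.05 ± 0.23). Lower among transporters and receptors were Slc38a2 (-1.50 ± 0.30), Il6ra (-1.40 ± 0.27), Erbb3 (-1.32 ± 0.20), Slc8b1 (-1.24 ± 0.18), Slc25a33 (-1.12 ± 0.19), Nr1i2 (-0.81 ± 0.16) and Slc7a2 (-0.79 ± 0.19, adjusted p = 0.0499). The remaining lower steps were those of RP23-34P11.1 (-2.02 ± 0.47), Ip6k2 (-1.87 ± 0.22), Cpeb2 (-1.71 ± 0.24), Dnmbp (-1.11 ± 0.14), Tcp11l2 (-1.05 ± 0.13) and Chic2 (-0.79 ± 0.11). Ip6k2 was called in both steps with opposite signs.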

How the results depend on the processing

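The counts for refed 60 min against refed 30 min were 539 higher and 390 lower. They stayed within 1.5 times under quantile normalization, a pseudocount of 5, no filter, a value of 50 or more in 3 libraries, and without the 2 libraries with conflicting labels. In the fit of only the groups compared, 145 were higher and 181 lower, the caged food step had 0 higher and 1 lower (909 with an unadjusted p under 0.05), and the difference 11 higher and 39 lower. Quality weights gave 629 lower in the refed step and 60 higher in the difference. A minimum of 50 gave 25 higher in the caged food step. With 1 library left out, the refed step had 204 to 473 higher and 172 to 339 lower, the caged food step 2 to 17 higher and 4 to 18 lower, and the difference 18 to 49 higher and 39 to 79 lower. With both caged food libraries that stood apart on the second component left out, chosen after seeing the data, the caged food step had 0 higher and 0 lower (1460 with an unadjusted p under 0.05). The replicate block gave 460 higher and 353 lower in the refed step, 15 and 14 in the caged food step, and 33 and 74 in the difference. The replicate numbers did not pair the libraries: residuals of same-numbered refed libraries correlated at 0.011, -0.0098 and -0.064. Of 104 named genes called in the step, 54 kept their call with each library left out, and 33 lost it in the fit of only the groups compared. No named gene called in the step changed sign under any alternative. Of those not called, 4 did: Srebf1 (-0.22 as reported) had 0.091 and Atf4 (0.023) -0.054 under quality weights, and with 1 library left out Srebf1 had -0.52 to 0.094, Atf4 -0.028 to 0.11, Dbp (0.061) -0.17 to 0.37 and Txnip (0.050) -0.0022 to 0.091. Depth limits the genes with values of about 10, where 1 read moves the value most. Of the named genes, 35 lost their call without R30-1 and 31 without R30-3, against 16 to 24 without any other library of the step, and the cause was not tested.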

Other observations

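Gene families that share the start of a symbol were read off the called genes after their values were seen, and are given as counts with no test. The DEAD-box helicases (Ddx), many of which act in ribosome assembly and splicing, had 7 of 35 tested members higher and 0 lower, with a median log2 fold change of 0.12. The ribosomal RNA processing genes (Rrp) had 5 of 8 higher and 0 lower, with a median of 0.50. The tRNA methyltransferases (Trmt) had 5 of 17 higher and 0 lower (median 0.25). The RNA-binding motif genes (Rbm) had 7 of 35 higher and 0 lower. Translation initiation factors (Eif) had 6 of 54 higher and 0 lower (median 0.13), and RNA polymerase subunits (Polr) had 4 of 28 higher and 0 lower (median 0.11).

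Zinc finger genes (Zfp) had 31 of 337 higher and 16 lower, while solute carriers (Slc) had 5 of 281 higher and 17 lower (median -0.052). Kruppel-like factors (Klf) had 0 of 13 higher and 3 lower (Klf11, Klf3 and Klf15), with 3 of the 13 above 0 and a median of -0.39. Among all genes tested, 3.38% were higher and 2.45% lower.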
